A study of Mus musculus with 8 samples.

Results

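The contrast described here sets the visual cortex of juvenile Otx2 heterozygotes against that of adult wild-type mice. Its members are 4 of the 8 samples of the series, chosen by their labels: 2 libraries of heterozygous mice (Otx2 +/GFP in the study's design, Otx2 +/- in the sample labels) at postnatal day 30 (P30), and 2 libraries of wild-type mice (Otx2 +/+) at P100. All were total RNA of layer IV, cut out by hand from visual cortex of the B6D2 strain, with 4 mice pooled for each condition and the work done in duplicate. The groups thus differ in genotype and in age at once. By their sex-linked transcripts they also differ in sex, which the labels do not give. The question was which gene programs of the young heterozygotes stood at the adult wild-type level and which stood apart from it. The 2 wild-type P30 libraries of the series entered no comparison here, and their levels are given beside the contrast as a description. The labels do not say whether duplicates came from separate pools. The p-values therefore reflect only how far duplicates lay apart, in the gene and in part over all genes, a spread that may be technical. The labels also do not say which cells still carry Otx2 protein in a heterozygote.

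Otx2 is a homeodomain transcription factor that the choroid plexus secretes and that parvalbumin interneurons of the cortex take up. Its accumulation in these cells, which are wrapped in perineuronal nets, is known to open and later close the critical period, the juvenile window in which vision shapes the connections of the visual cortex. Neuronal activity induces early transcription factors of the AP-1, Egr and Nr4a families within minutes to hours, and these act on synaptic and signalling genes. Gadd45 proteins, also induced by activity, take part in DNA demethylation. Myelination, the nets and the subunit make-up of synaptic receptors mature over the same weeks of life.

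The labels could be checked only in part. Otx2 (chromosome 14, 48657677 to 48673819, mm10) had 0 counts in every library but heterozygous replicate 2, where 73 counts gave 5.11 CPM (counts scaled to a common library total). A floor of 3 counts is 0.216 to 0.294 CPM in the other libraries, and covers counting error only. The same library held 8966 counts of Ttr, a choroid plexus transcript with 0 or 1 count elsewhere, and all 18 autosomal choroid plexus genes in the files peaked there (summed level 709 CPM against 10.1 to 14.3 CPM in the other 5 libraries). Xist, which coats the inactive X, had 844 and 994 CPM in heterozygotes and 0.283 to 0.686 CPM in wild type, and the Y-linked Ddx3y had 2.67 and 1.12 CPM against 156 to 167 CPM. By these transcripts the heterozygous libraries came from mostly female tissue and the wild-type ones from male tissue. Sex, genotype and age all separate the same groups and cannot be told apart. The test was restricted to autosomal genes, which leaves any effect of sex on these genes in place. Their counts totalled 12898269 and 10514362 in the wild-type P100 libraries and 13909265 and 14294098 in the heterozygous ones. Among the genes of the dissected layer, Rorb, the layer 4 transcription factor, was present at 535 to 585 CPM in the 4 libraries.

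Of 14703 autosomal genes tested, 452 (3.07%) were higher and 480 (3.26%) were lower in the P30 heterozygotes than in the P100 wild type, 932 (6.34%) in all. A gene is called higher or lower here when the Benjamini-Hochberg adjusted p of edgeR's quasi-likelihood test was under 0.05. Levels are CPM scaled by TMM, and differences are log2 values, heterozygous P30 minus wild-type P100. Most differences were small: 68 genes were called higher and 83 lower by more than 2-fold, and the median log2 difference was 0.49 among genes called higher and -0.49 among genes called lower. Over all tested genes it was 0.0012. For 9237 genes (62.8%) the 95% interval of the difference lay inside 1.5-fold either way, which places the P30 heterozygous level within that distance of the adult one at this precision. Both statements held for 301 genes, with a difference that was called but small, and 4835 genes were neither called nor held inside 1.5-fold. The values of the 2 groups did not overlap in 931 of the called genes, nor in 50.8% of all tested genes. Leaving out a library moved the counts most where a heterozygous one was dropped: 268 higher and 265 lower genes were called without heterozygous replicate 1, and 278 and 317 without heterozygous replicate 2.

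Among activity-regulated transcription factors, 5 stood above the adult wild-type level in the young heterozygotes, led by Egr2 and Nr4a3, and most of the others could not be separated from it. Of 27 members, 26 passed the filter on low counts: 5 were higher (19.2%, beside 3.07% of all genes), 1 was lower and 9 (34.6%, beside 62.8%) lay inside 1.5-fold, with a median log2 difference of 0.17. By family, 1 of 6 AP-1 subunits, 3 of 6 Egr factors and their corepressors, and 1 of 3 Nr4a receptors were higher. The promoters of 5 of these genes are printed because they belong to 1 induced program and yet the genes fall on both sides of the test: Egr2, Egr4 and Fos were higher, Junb and Nr4a1 were not called. Each line gives the 250 bases before the transcription start in RefSeq's table of the GRCm38.p6 assembly, read 5′ to 3′ along the gene. Capitals mark TGACG, the core of the cyclic AMP response element (CRE), on either strand (CGTCA on the opposite one), and the CArG box, the site of serum response factor.
Egr2, chr10:67537619-67537868, plus strand: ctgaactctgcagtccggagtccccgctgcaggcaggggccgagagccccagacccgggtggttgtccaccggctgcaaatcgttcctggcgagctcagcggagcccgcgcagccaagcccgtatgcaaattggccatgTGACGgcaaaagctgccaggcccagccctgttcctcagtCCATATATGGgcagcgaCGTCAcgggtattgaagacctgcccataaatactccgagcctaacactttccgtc
Egr4, chr6:85513590-85513839, minus strand: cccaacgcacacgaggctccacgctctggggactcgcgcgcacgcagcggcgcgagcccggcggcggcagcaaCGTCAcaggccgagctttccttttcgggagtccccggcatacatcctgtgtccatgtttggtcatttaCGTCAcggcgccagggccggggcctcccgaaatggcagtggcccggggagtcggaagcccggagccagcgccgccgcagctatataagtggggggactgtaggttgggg
Fos, chr12:85473640-85473889, plus strand: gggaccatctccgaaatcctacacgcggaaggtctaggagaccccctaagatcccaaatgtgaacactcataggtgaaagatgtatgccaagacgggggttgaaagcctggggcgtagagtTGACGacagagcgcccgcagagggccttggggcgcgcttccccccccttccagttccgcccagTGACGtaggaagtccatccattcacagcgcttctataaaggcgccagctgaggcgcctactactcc
Junb, chr8:84978749-84978998, minus strand: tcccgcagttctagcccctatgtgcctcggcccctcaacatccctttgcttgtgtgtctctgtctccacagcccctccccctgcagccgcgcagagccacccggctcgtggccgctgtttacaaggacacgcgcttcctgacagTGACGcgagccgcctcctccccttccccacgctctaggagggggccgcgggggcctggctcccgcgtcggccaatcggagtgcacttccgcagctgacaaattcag
Nr4a1, chr15:101266596-101266845, plus strand: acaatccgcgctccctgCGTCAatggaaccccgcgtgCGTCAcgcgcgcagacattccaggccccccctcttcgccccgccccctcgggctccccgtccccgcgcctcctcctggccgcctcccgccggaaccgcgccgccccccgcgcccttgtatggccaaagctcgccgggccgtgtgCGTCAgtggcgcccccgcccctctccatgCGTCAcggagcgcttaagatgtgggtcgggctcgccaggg

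The Egr2 window held 2 CRE cores and a CArG box between them, the Egr4 and Fos windows 2 CRE cores each, the Junb window 1 and the Nr4a1 window 4. Among 32536 promoters of the table, 17.9% hold a CRE core and 1.48% a CArG box in a window of this length. The number of CRE cores did not sort the genes that were called from those that were not. A match of letters is a description and no evidence of binding. Bases outside these windows were not searched, so a gene without a match here may hold the site farther away.

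Egr2 (ENSMUSG00000037868, chromosome 10, 67535475 to 67542188), a zinc finger protein induced early by activity, stood at 6.93 and 4.82 CPM in the adult wild type and at 21.1 and 25.4 CPM in the P30 heterozygotes. Both heterozygous values lay above both adult ones, a log2 difference of 1.97 (SE 0.17, interval 1.59 to 2.34, adjusted p = 4.9e-05), and both lay far below the 102 and 127 CPM of wild-type P30. Nr4a3 (chromosome 4, 48045153 to 48086447), an orphan nuclear receptor, was at 17.8 and 13.97 CPM in adults and at 43.7 and 42.2 CPM in heterozygotes, a log2 difference of 1.43 (SE 0.12, adjusted p = 4.67e-05), beside 65.2 and 94.1 CPM in wild-type P30. Egr1, the best known member of the Egr family, had 122 and 102 CPM in adults and 163 and 216 CPM in heterozygotes, a log2 difference of 0.76 (SE 0.12, adjusted p = 0.00227), beside 358 and 503 CPM. These 3 genes share an order of levels: adult wild type lowest, young heterozygotes next, young wild type highest. Their calls held in all alternatives tried.

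Egr4 and Fos, the AP-1 subunit, were called with smaller margins. Egr4 was at 7.71 and 5.85 CPM in adults and at 11.2 and 14.3 CPM in heterozygotes (log2 difference 0.90, SE 0.19, adjusted p = 0.0128), and its call was lost without heterozygous replicate 2 (adjusted p = 0.0934). Fos was at 20.7 and 35.1 CPM in adults and at 40.7 and 50.4 CPM in heterozygotes (log2 difference 0.72, SE 0.18, adjusted p = 0.0332), and was lost without wild-type P100 replicate 1 (0.0603), without heterozygous replicate 2 (0.12), in DESeq2 (0.455) and with counts summed over transcripts (0.175). Crem, which encodes a cyclic AMP response modulator with repressor isoforms, was the member called lower: 30.1 and 28.6 CPM in adults against 19.3 and 20.2 CPM in heterozygotes, a log2 difference of -0.57 (SE 0.11, adjusted p = 0.00719), beside 27.6 and 36.9 CPM in young wild type. Here the heterozygotes lay below both wild-type ages.

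**Figure D1:**
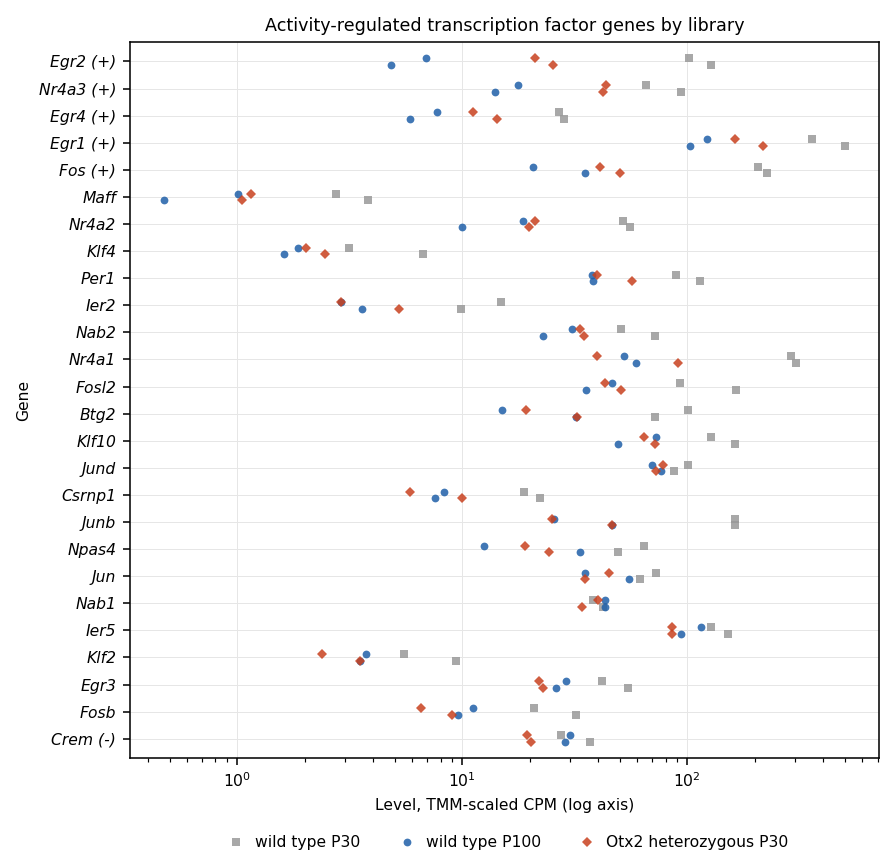
TMM-scaled CPM (log axis) of the 26 tested activity-regulated transcription factor genes in each library: grey squares for wild-type P30, blue circles for wild-type P100 and red diamonds for heterozygous P30; (+) and (-) after a name mark genes called higher or lower in heterozygotes. Egr2 and Nr4a3 lie at the top with red points between the blue and the grey ones, and for Junb the red points fall on the blue ones.

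Junb, another AP-1 subunit, stood at 25.6 and 46.5 CPM in adults and at 25.0 and 46.4 CPM in heterozygotes, so the groups overlapped fully, with a log2 difference of 0.00 (interval -0.56 to 0.56) beside 163 and 163 CPM in young wild type. Nr4a1 could not be placed: the heterozygous libraries read 39.6 and 91.1 CPM on either side of the adult 52.3 and 59.0 CPM, and the gene was called higher without heterozygous replicate 1 (log2 difference 0.71, adjusted p = 0.000307) and lower without replicate 2 (-0.49, adjusted p = 0.0436). Npas4, a factor induced by calcium influx in neurons, overlapped as well, at 12.5 and 33.4 CPM in adults and 19.0 and 24.4 CPM in heterozygotes, and its direction turned with the adult library left out. Without wild-type P100 replicate 1 its log2 difference was -0.62 (adjusted p = 0.00248), and without replicate 2 it was 0.79 (adjusted p = 0.00264). Egr3 was at 29.0 and 26.2 CPM in adults and 21.8 and 22.8 CPM in heterozygotes, a log2 difference of -0.31 (interval -0.54 to -0.07) that did not pass over all genes (adjusted p = 0.123). The count of members called depended on the libraries, from 8 higher and 3 lower without wild-type P100 replicate 1 to 3 higher and 2 lower without heterozygous replicate 2. The summed level of the list was 838 CPM in both adult libraries, 895 and 1077 CPM in heterozygotes and 2260 and 2653 CPM in young wild type.

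Of 23 activity-regulated effector genes, which act downstream of activity, all were tested: 1 was higher and 1 lower (4.35% each, beside 3.07% and 3.26% of all genes) and 11 (47.8%, beside 62.8%) lay inside 1.5-fold, with a median log2 difference of -0.08. Homer1, a scaffold protein of the postsynaptic density, stood at 608 and 476 CPM in adults and at 572 and 575 CPM in heterozygotes, beside 984 and 1205 CPM in young wild type. The interval of its log2 difference ran from -0.11 to 0.27, but the gene was called higher without wild-type P100 replicate 1 (log2 difference 0.267). Bdnf, the neurotrophin, stood at 47.8 and 52.4 CPM against 41.5 and 50.1 CPM, with an interval of -0.36 to 0.10. Arc, which controls endocytosis of glutamate receptors, was at 264 and 300 CPM in adults and split in heterozygotes, at 154 and 306 CPM, beside 1303 and 1689 CPM in young wild type. Its log2 difference of -0.29 was not called (interval -0.73 to 0.15), but it was without heterozygous replicate 2 (adjusted p = 1.37e-05). The member called lower was Vgf, a secreted neuropeptide precursor (146 and 134 CPM against 91.4 and 121 CPM, log2 difference -0.40, adjusted p = 0.0441). That call was lost without heterozygous replicate 1 (log2 difference -0.21) and in DESeq2 (adjusted p = 0.382). It was also lost with counts summed over transcripts (edgeR adjusted p = 0.131) and in the fit on 6 libraries (0.0771).

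Gadd45b, which the study's title names, and its relative Gadd45g fell on different sides of the test. Gadd45b was at 6.70 and 6.89 CPM in adults and at 7.42 and 6.23 CPM in the P30 heterozygotes, values that overlapped, with a log2 difference of 0.01 (interval -0.40 to 0.41), and at 15.7 and 17.4 CPM in young wild type. Gadd45g was at 7.24 and 7.18 CPM in adults and at 11.4 and 11.7 CPM in heterozygotes without overlap, a log2 difference of 0.68 (SE 0.16, adjusted p = 0.0231), beside 26.6 and 23.9 CPM in young wild type. The Gadd45g call was lost without either heterozygous library (adjusted p = 0.0769 without replicate 1 and 0.101 without replicate 2) and in DESeq2 (adjusted p = 0.141). The difference between the 2 genes was not tested.

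Among 23 genes of DNA methylation, 20 were tested: 5 were higher (25%, beside 3.07% of all genes), 1 was lower (5%, beside 3.26%) and 12 (60%, beside 62.8%) lay inside 1.5-fold, with a median log2 difference of 0.01. Of the writers, Dnmt3a, the de novo methyltransferase, was at 166 and 167 CPM in adults and at 230 and 232 CPM in heterozygotes, beside the 239 and 246 CPM of young wild type. That is a log2 difference of 0.47 (SE 0.06, interval 0.33 to 0.60, adjusted p = 0.000986), called in every alternative. Dnmt1, the maintenance enzyme, stood at 85.9 and 78.7 CPM in adults and 86.4 and 87.8 CPM in heterozygotes, with an interval of -0.09 to 0.25. None of the 7 readers was called in the edgeR fit and 6 lay inside 1.5-fold. Of 10 erasers and repair genes 4 were higher and 1 was lower. Tet1 and Tet3, which oxidize methylcytosine, had log2 differences of 0.47 (adjusted p = 0.00757) and 0.36 (0.0339), Idh1, which makes their cofactor, 0.53 (0.00721), and Tdg, the glycosylase that removes the oxidized bases, -1.14 (0.0231) at 1.89 to 5.14 CPM. These calls were less firm: without heterozygous replicate 1 the adjusted p of Tet1 was 0.0521 and that of Tet3 0.0991, without heterozygous replicate 2 those of Idh1, Tet3 and Tdg were 0.0743, 0.124 and 0.12, and without wild-type P100 replicates 1 and 2 those of Tdg and Tet3 were 0.13 and 0.0811.

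Genes of parvalbumin interneurons, the cells that take up Otx2, stood mostly within 1.5-fold of the adult level. Of 22 members, all tested, 2 were higher and 2 were lower (9.09% each, beside 3.07% and 3.26% of all genes). Inside 1.5-fold lay 17 (77.3%, beside 62.8%), with a median log2 difference of -0.09. With counts summed over transcripts none of them was called. Pvalb, the calcium buffer that names the class, was at 69.9 and 89.3 CPM in adults and at 76.4 and 72.0 CPM in heterozygotes, and at 76.0 and 74.3 CPM in young wild type. All 6 values fall in 1 range, and the log2 difference was -0.10 (interval -0.33 to 0.13). Gad1, which makes GABA (216 and 260 CPM against 223 and 217 CPM), and Kcnc2, a fast potassium channel (231 and 246 CPM against 244 and 242 CPM), were also held inside 1.5-fold. Tac1, a neuropeptide precursor of a subset of these cells, was the member with the widest difference: 3.27 and 1.04 CPM in adults against 6.34 and 6.02 CPM in heterozygotes (log2 difference 1.46, SE 0.34, adjusted p = 0.0221), not called with counts summed over transcripts (adjusted p = 0.0923). Of 19 tested genes of other interneurons 3 were higher (15.8%, beside 3.07% of all genes) and none was lower. Inside 1.5-fold lay 9 (47.4%, beside 62.8%), and the median log2 difference was 0.19. With counts summed over transcripts none of this list was called, the fit on 6 libraries gave 1 higher and a replicate block 4. Calb1 and Cnr1, both with a log2 difference of 0.32, lost their calls in 5 and 4 of 14 alternatives. Sst, the somatostatin precursor, was at 84.4 and 91.5 CPM against 103 and 92.0 CPM (interval -0.03 to 0.33), and Cort, the related cortistatin precursor, was called at 2.10 and 1.89 CPM against 3.75 and 5.74 CPM (log2 difference 1.24, adjusted p = 0.0231; 0.209 without heterozygous replicate 2).

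In perineuronal nets, the called genes encoded structural components. Of 32 tested members 3 were higher (9.38%, beside 3.07% of all genes), 1 was lower (3.12%, beside 3.26%) and 19 (59.4%, beside 62.8%) lay inside 1.5-fold. The median log2 difference was 0.19, and all 4 called genes were among the 11 core components. Vcan (versican, a chondroitin sulfate proteoglycan; chromosome 13, 89655312 to 89742509) was at 35.8 and 29.3 CPM in adults and at 50.2 and 61.7 CPM in heterozygotes, a log2 difference of 0.78 (SE 0.12, adjusted p = 0.00281), beside 44.4 and 48.7 CPM in young wild type. Hapln1, the neighbouring gene on chromosome 13, which encodes a link protein that ties proteoglycans to hyaluronan, was at 21.1 and 16.5 CPM against 30.8 and 29.8 CPM (log2 difference 0.68, SE 0.12, adjusted p = 0.00654). Ncan, the proteoglycan neurocan, was at 256 and 237 CPM against 315 and 340 CPM (log2 difference 0.41, SE 0.07, adjusted p = 0.00365). In all 3 the heterozygous values lay above both adult ones and near or above the young wild-type ones, which ran from 27.6 to 29.3 CPM for Hapln1 and from 303 to 372 CPM for Ncan.

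Hapln4, the link protein of nets around fast interneurons, went the other way, at 58.6 and 56.4 CPM in adults, 38.7 and 45.8 CPM in heterozygotes and 50.1 and 50.3 CPM in young wild type. Its log2 difference was -0.44 (SE 0.10, adjusted p = 0.0193), lost without heterozygous replicate 1 (0.205). Acan, the aggrecan that is the classic net proteoglycan, was at 5.84 and 6.04 CPM against 5.76 and 5.88 CPM, with an interval of -0.45 to 0.39, and Bcan and Tnr, brevican and tenascin R, were inside 1.5-fold too. Of 10 tested enzymes that build and sulfate chondroitin chains, 9 (90%, beside 62.8% of all genes) were inside 1.5-fold. Of 11 proteases and their inhibitors, 5 (45.5%) were inside. None of either set was called in the edgeR fit, beside 6.34% of all genes. In sets this small, no call at all lies near that share.

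**Figure D2:**
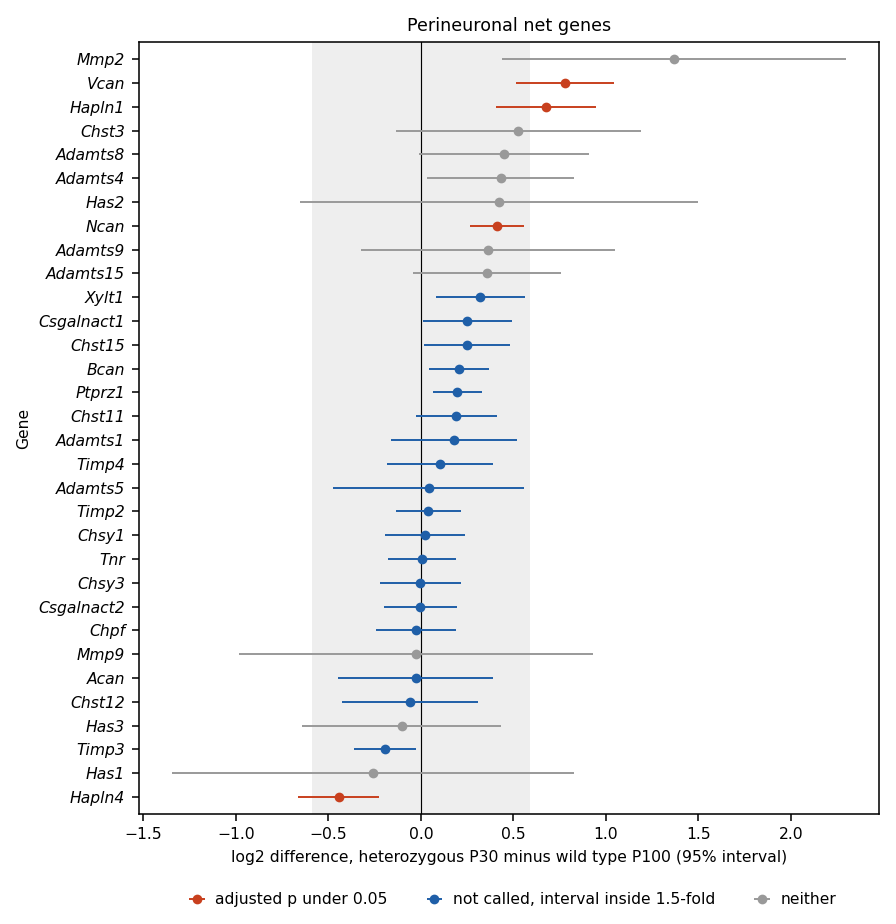
Log2 difference of heterozygous P30 from wild-type P100 (horizontal axis) with its 95% interval for the 32 tested perineuronal net genes; red marks genes with an adjusted p under 0.05, blue genes not called with the interval inside 1.5-fold (grey band), and grey genes that are neither. Vcan, Hapln1 and Ncan are red to the right of 0 and Hapln4 red to the left, while Acan, Bcan and Tnr are blue.

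Molecular brakes on plasticity include myelin inhibitors, their receptors and modulators of nicotinic transmission. Of 17 tested genes 9 (52.9%, beside 62.8% of all genes) were inside 1.5-fold, 1 was higher (5.88%, beside 3.07%) and none was lower. The median log2 difference was 0.11. Lynx1, which damps nicotinic receptors and is known to limit adult plasticity, was at 453 and 526 CPM in adults and at 535 and 517 CPM in heterozygotes (interval -0.05 to 0.26). Rtn4, the myelin inhibitor Nogo, was at 778 and 840 CPM against 860 and 807 CPM (interval -0.09 to 0.18). The gene called higher was Lypd1, a relative of Lynx1 (64.1 and 47.8 CPM against 107 and 74.9 CPM, log2 difference 0.69, adjusted p = 0.017). It shares 17.1% of its exon bases with another gene, so its value is uncertain to that extent. Its call was lost without heterozygous replicate 1 (log2 difference 0.415) and in DESeq2 (adjusted p = 0.287).

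The textbook switches of neuronal maturation lay mostly within 1.5-fold of the adult level, with called members in both directions. All 29 members were tested: 2 were higher (6.9%, beside 3.07% of all genes), 5 were lower (17.2%, beside 3.26%) and 25 (86.2%, beside 62.8%) lay inside 1.5-fold, 5 of the called genes among them, with a median log2 difference of -0.05. Of 18 genes known to be higher in adult cortex, 4 were lower in the young heterozygotes and 17 were inside 1.5-fold, and of 11 genes known to be higher in juvenile cortex, 2 were higher and 1 was lower. Grin2b, the juvenile subunit of the NMDA receptor, was at 800 and 751 CPM in adults and at 600 and 645 CPM in heterozygotes (log2 difference -0.32, SE 0.06, adjusted p = 0.0087), and at 734 and 774 CPM in young wild type. Its partner in the switch, Grin2a, was at 164 and 157 CPM against 136 and 142 CPM (log2 difference -0.21, adjusted p = 0.0891), beside 157 and 161 CPM. For both subunits the 2 heterozygous values lay below all 4 wild-type ones.

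Of the adult-high genes called lower, Vamp1, a vesicle SNARE of fast synapses, was at 119 and 143 CPM against 94.2 and 102 CPM (log2 difference -0.42, adjusted p = 0.0147). Kcna1, a potassium channel of axons, was at 377 and 372 CPM against 299 and 309 CPM (-0.30, adjusted p = 0.00982). Young wild type stood at 363 and 373 CPM for Kcna1, so the heterozygotes lay below both wild-type ages. Nefl, the light neurofilament, had a log2 difference of -0.25 (adjusted p = 0.0451). Gabra5, a juvenile-high GABA receptor subunit, was at 25.9 and 16.4 CPM against 31.8 and 33.1 CPM (log2 difference 0.60, adjusted p = 0.0406). Its heterozygous values lay above the 25.2 and 26.1 CPM of young wild type as well. Nrep, a growth-related gene, had a log2 difference of 0.36 (adjusted p = 0.0185). Each of these calls, and that of Grin2b, was lost without at least 1 library: without heterozygous replicate 1 the adjusted p was 0.0893 for Grin2b, 0.0982 for Kcna1, 0.0742 for Vamp1 and 0.21 for Nrep. Without heterozygous replicate 2 it was 0.0891 for Gabra5 and 0.278 for Nefl, and without wild-type P100 replicate 2 it was 0.116 and 0.0983 for the same 2 genes. Slc12a5, the chloride exporter that makes GABA inhibitory, was inside 1.5-fold, with an interval of -0.26 to -0.0033. Nefl shares 32.8% of its exon bases with another gene. Its call was also lost with genes of all chromosomes (edgeR adjusted p = 0.0536), in the fit on 6 libraries (0.0973) and with a replicate block (0.0578). With counts summed over transcripts the calls of Nefl (0.117) and Gabra5 (0.128) were both lost.

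**Figure D3:**
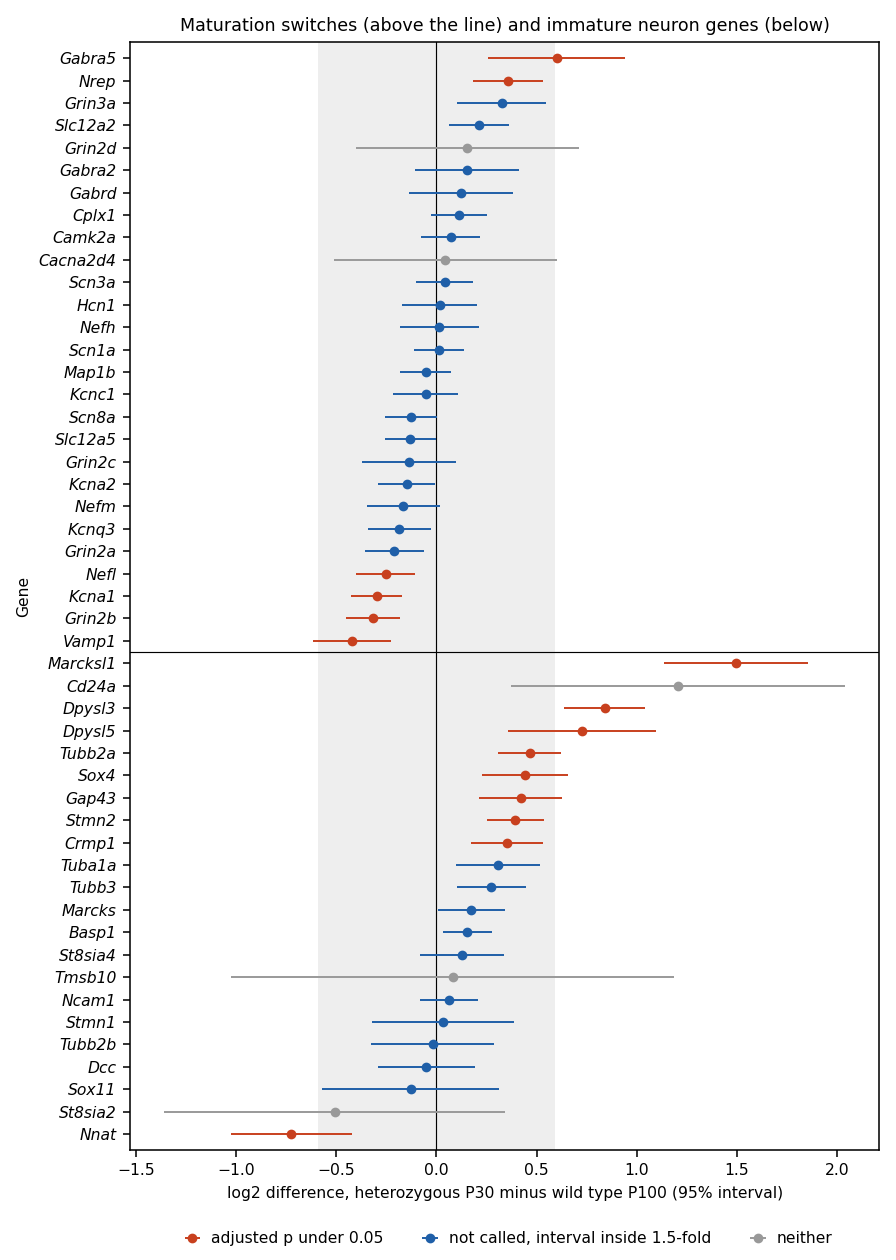
Log2 difference of heterozygous P30 from wild-type P100 (horizontal axis) with its 95% interval for 27 of the 29 maturation switch genes (above the line) and 22 immature neuron genes (below it), coloured as in the plot of perineuronal net genes. The switch genes crowd around 0 within the grey 1.5-fold band, and Marcksl1, Dpysl3 and Dpysl5 lie to its right among the immature neuron genes.

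Several genes of immature neurons and axon growth were higher in the young heterozygotes. Of 22 tested members 8 were higher (36.4%, beside 3.07% of all genes), 1 was lower and 12 lay inside 1.5-fold, with a median log2 difference of 0.22. Marcksl1 (chromosome 4, 129513581 to 129515985), which binds actin in growing processes, was at 6.85 and 10.5 CPM in adults and at 24.7 and 23.7 CPM in heterozygotes, beside 18.6 and 22.0 CPM in young wild type, 2.82-fold higher (SE 0.17 on the log2 scale, adjusted p = 0.000265). Dpysl3, a collapsin response mediator of growth cones, was at 51.6 and 45.2 CPM against 90.8 and 83.0 CPM (log2 difference 0.84, SE 0.09, adjusted p = 0.000265), above the 71.3 and 63.2 CPM of young wild type. Tubb2a, a tubulin, and Stmn2, which destabilizes microtubules, had log2 differences of 0.47 (adjusted p = 0.00241) and 0.39 (0.00386).

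These 4 calls held in all alternatives. Gap43, the growth-associated protein, was at 131 and 108 CPM against 172 and 148 CPM (log2 difference 0.42, adjusted p = 0.02), lost without heterozygous replicate 1 (0.147) and without wild-type P100 replicate 2 (0.0595). Nnat, an imprinted neuronal proteolipid gene, was the member called lower, at 26.6 and 20.4 CPM against 14.4 and 14.1 CPM (log2 difference -0.72, SE 0.14, adjusted p = 0.00824), beside the 19.6 and 14.5 CPM of young wild type. Dcc, the netrin receptor, and Sox11, a factor of newborn neurons, were inside 1.5-fold (intervals -0.29 to 0.19 and -0.57 to 0.31). Without heterozygous replicate 1, and likewise without replicate 2, 5 members were called higher and 1 lower.

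Of 34 glutamate and GABA receptor genes 28 (82.4%, beside 62.8% of all genes) lay inside 1.5-fold, 5 were higher (14.7%, beside 3.07%) and 1, Grin2b, was lower (median log2 difference 0.07). Gria2, the AMPA receptor subunit that blocks calcium, was at 1640 and 1596 CPM in adults and at 1606 and 1595 CPM in heterozygotes (interval -0.13 to 0.10). The higher ones were Grm2, Gabrg3, Grik3, Grm3 and Gabra5, with log2 differences of 0.57, 0.49, 0.49, 0.24 and 0.60. Only 2 of the list were called higher without heterozygous replicate 1, and 2 without replicate 2. Of 21 genes of vesicle release 19 (90.5%) lay inside 1.5-fold, 2 were higher and 2 were lower (9.52% each). Snap25, the SNARE protein of the presynaptic membrane, was lower in every alternative: 3820 and 4027 CPM in adults against 3088 and 3202 CPM in heterozygotes, beside 2904 and 3636 CPM in young wild type, a log2 difference of -0.32 (SE 0.05, interval -0.43 to -0.20, adjusted p = 0.00389). Its partner Syt1, the calcium sensor of release, was at 2582 and 2386 CPM against 2684 and 2583 CPM (interval -0.04 to 0.21). Syt1 was called higher without wild-type P100 replicate 1 (log2 difference 0.141). Rims3, a regulator of the release site chosen after its values were seen, was lower too, at 401 and 450 CPM against 207 and 222 CPM, beside 310 and 323 CPM in young wild type (log2 difference -0.99, SE 0.07, adjusted p = 2.51e-05).

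Oligodendrocyte genes differed in both directions, with more members of the mature sheath higher than lower. In bulk tissue, fewer cells of a type and less RNA per cell cannot be told apart. Of 25 tested myelin genes 8 were higher (32%, beside 3.07% of all genes), 3 were lower (12%, beside 3.26%) and 6 (24%, beside 62.8%) lay inside 1.5-fold, with a median log2 difference of 0.14. Cldn11 (chromosome 3, 31149920 to 31164324), the tight junction protein of myelin, was at 44.0 and 35.4 CPM in adults and at 76.7 and 76.1 CPM in heterozygotes, without overlap, a log2 difference of 0.94 (SE 0.10, adjusted p = 0.000265), beside 130 and 113 CPM in young wild type. Cnp, an enzyme of the myelin sheath, was at 95.7 and 91.6 CPM against 129 and 136 CPM (log2 difference 0.50, SE 0.07, adjusted p = 0.00172), beside 206 and 184 CPM. Mog, a surface protein of myelin, was at 13.8 and 11.3 CPM against 22.3 and 22.2 CPM (0.82, SE 0.13, adjusted p = 0.00309), beside 32.0 and 30.8 CPM. Tspan2, Ugt8a, Mag and Mal, a tetraspanin, the galactolipid synthase, a myelin adhesion protein and a myelin proteolipid, were also higher, with log2 differences of 0.73, 0.70, 0.47 and 0.46. For these 7 genes the heterozygotes lay between the adult and the young wild type, and the calls held in all alternatives.

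Mbp, myelin basic protein, did not pass: 683 and 570 CPM in adults, 697 and 794 CPM in heterozygotes, a log2 difference of 0.25 (interval 0.07 to 0.43, adjusted p = 0.0985), although it was called without wild-type P100 replicate 1 (0.000202) and without heterozygous replicate 1 (0.0305). The members called lower were Hapln2, Anln and Apod. Hapln2, the link protein of nodes of Ranvier, was at 7.17 and 6.61 CPM in adults and at 2.45 and 1.96 CPM in heterozygotes (log2 difference -1.64, SE 0.24, adjusted p = 0.00164), beside 3.33 and 3.96 CPM in young wild type. Anln, an actin-binding protein enriched in mature oligodendrocytes, was at 16.0 and 13.03 CPM against 6.49 and 7.98 CPM (-1.01, SE 0.17, adjusted p = 0.00417), beside 7.74 and 7.76 CPM. Apod, a lipid carrier of late oligodendrocytes, had -0.45 (adjusted p = 0.0441), lost without heterozygous replicate 1 (0.373) and without wild-type P100 replicate 2 (0.0637).

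Of 15 tested genes of oligodendrocyte precursors and newly formed cells 5 were higher (33.3%, beside 3.07% of all genes) and none was lower. Inside 1.5-fold lay 5 (33.3%, beside 62.8%), and the median log2 difference was 0.33. DESeq2 and counts summed over transcripts each gave 4 higher. Cspg5 was called with a small log2 difference of 0.30 (edgeR adjusted p = 0.0111), a call that did not hold without either heterozygous library. Pdgfra, the growth factor receptor of precursors, was at 82.8 and 75.5 CPM in adults and at 120.0 and 122 CPM in heterozygotes (log2 difference 0.61, SE 0.08, adjusted p = 0.000587), beside 115 and 106 CPM in young wild type. Gpr17, a receptor of committed precursors, was at 41.0 and 26.4 CPM against 75.4 and 86.4 CPM (1.25, SE 0.15, adjusted p = 0.000455), beside 71.1 and 83.5 CPM. Enpp6, an enzyme of newly forming oligodendrocytes, was at 1.87 and 1.79 CPM against 6.197 and 5.18 CPM (1.63, SE 0.26, adjusted p = 0.00281), beside 10.8 and 6.49 CPM in young wild type. Pdgfra and Gpr17 thus stood in the heterozygotes within or above the range of young wild type, and Enpp6 below it; all 3 calls held in every alternative. Olig1 and Olig2, factors of the whole lineage, were inside 1.5-fold, with intervals of -0.07 to 0.42 and -0.34 to 0.35, and 3 members were called higher without heterozygous replicate 2.

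**Figure D4:**
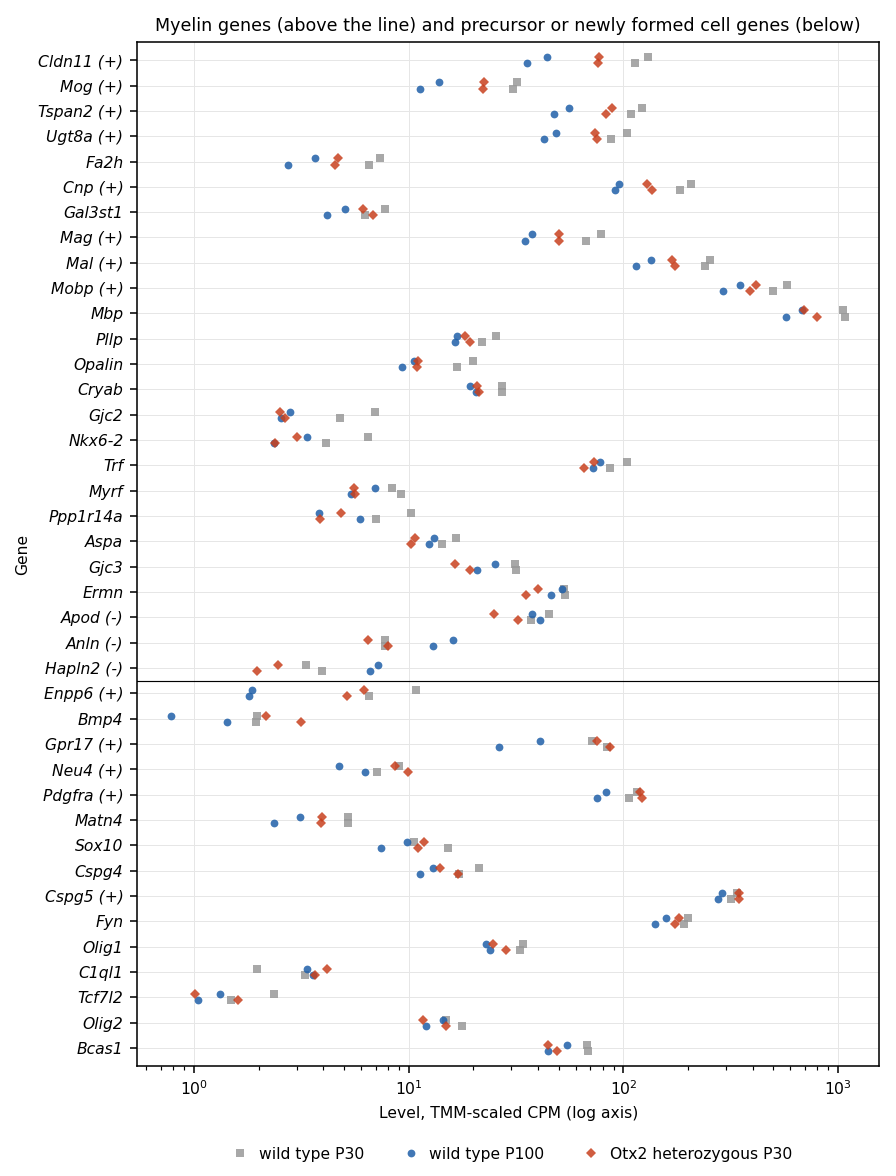
TMM-scaled CPM (log axis) of 25 myelin genes (above the line) and 15 precursor or newly formed oligodendrocyte genes (below it) in each library, with symbols and marks as in the plot of activity-regulated genes. For Cldn11, Cnp and Mog the red points lie between the blue and the grey ones, and for Hapln2 and Anln they lie to the left of the blue ones.

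Of 21 astrocyte genes 20 (95.2%, beside 62.8% of all genes) lay inside 1.5-fold and 1, Gja1 (connexin 43), was called higher (148 and 134 CPM against 179 and 187 CPM, log2 difference 0.37, adjusted p = 0.00843; 0.061 without heterozygous replicate 2). Of 21 microglial genes 13 (61.9%) lay inside 1.5-fold and 2 were higher (9.52%, beside 3.07%). P2ry12, the purine receptor of resting microglia, was at 44.3 and 39.1 CPM in adults and at 61.2 and 63.4 CPM in heterozygotes (0.58, SE 0.10, adjusted p = 0.00361), whereas Csf1r, the receptor for their survival factor, was at 65.3 and 62.5 CPM against 63.9 and 77.1 CPM (interval -0.07 to 0.35). Of 22 endothelial and mural genes 15 (68.2%) were inside 1.5-fold and 2 were higher (9.09%), Kdr, a receptor for vascular endothelial growth factor (14.02 and 17.2 CPM against 24.9 and 26.8 CPM, 0.74, adjusted p = 0.00482), among them.

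Matrix and meningeal genes were measured at lower levels and with wider intervals. Of 23 tested collagen and basement membrane genes 4 were higher (17.4%, beside 3.07% of all genes) and none was lower. Inside 1.5-fold lay 6 (26.1%, beside 62.8%), and the median log2 difference was 0.28. Sparc, a matrix glycoprotein of vessels and glia, was at 65.6 and 77.5 CPM in adults and at 124 and 133 CPM in heterozygotes (0.85, SE 0.09, adjusted p = 0.000177), alongside the 127 and 122 CPM of young wild type. Col6a1, a collagen, was at 10.6 and 6.14 CPM against 21.5 and 15.9 CPM (1.14, SE 0.21, adjusted p = 0.0072). Of 12 tested meningeal genes 3 were higher (25%, beside 3.07% of all genes) and 1 was lower (8.33%, beside 3.26%), and the called ones did not move as 1 group. Igfbp2, a binding protein of insulin-like growth factors, was higher (17.5 and 18.2 CPM against 37.0 and 47.9 CPM, 1.25, adjusted p = 0.000177), and so was Nov, a matricellular protein also made by cortical neurons (51.2 and 52.0 CPM against 98.4 and 95.8 CPM, 0.91, adjusted p = 4.9e-05). Ptgds, the prostaglandin D synthase of meninges and oligodendrocytes, was lower, at 44.1 and 49.7 CPM against 18.6 and 20.5 CPM (-1.26, SE 0.11, adjusted p = 4.85e-05), below the 40.7 and 34.7 CPM of young wild type as well. The summed meningeal level was 134 and 141 CPM in adults and 178 and 198 CPM in heterozygotes, and its part in the matrix differences was not tested. Sparc, Col6a1, Igfbp2, Nov and Ptgds were called without heterozygous replicate 2, the library with choroid plexus RNA, too.

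Among markers of the cortical layers, none of 12 layer 4 genes was called higher in the edgeR fit, 4 were lower (33.3%, beside 3.26% of all genes) and 7 (58.3%, beside 62.8%) lay inside 1.5-fold (median log2 difference -0.20). Scnn1a, a sodium channel subunit used as a layer 4 marker, was at 10.9 and 8.59 CPM in adults and at 4.54 and 4.76 CPM in heterozygotes (-1.07, SE 0.19, adjusted p = 0.006), beside 6.27 and 8.88 CPM in young wild type. Rspo1, a secreted Wnt agonist, was at 25.8 and 36.0 CPM against 13.4 and 17.6 CPM (-0.98, SE 0.17, adjusted p = 0.00401), beside 18.1 and 22.1 CPM. The layer 4 genes Rorb and Plcxd2 were inside 1.5-fold, with intervals of -0.21 to 0.04 and -0.09 to 0.15. Of the deep-layer genes, 3 of 15 from layer 5 were higher (20%, beside 3.07%) and 1 lower (median 0.53), and 4 of 13 from layer 6 were higher (30.8%) and none lower (median 0.70). The layer 6 count was 7 without wild-type P100 replicate 1 and 1 in DESeq2 or with counts summed over transcripts.

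Etv1, a factor of layer 5 neurons, was at 13.6 and 10.8 CPM in adults and at 26.2 and 22.1 CPM in heterozygotes, above the 16.7 and 16.4 CPM of young wild type (0.98, SE 0.14, adjusted p = 0.00175). Sulf2, a sulfatase of heparan chains, was at 97.6 and 93.1 CPM against 150 and 145 CPM (0.63, SE 0.07, adjusted p = 0.00028), and Rprm, a gene of deep layers, at 9.97 and 5.57 CPM against 18.0 and 15.9 CPM (1.10, SE 0.21, adjusted p = 0.00674). The adult libraries themselves differed in these genes: the summed layer 5 level was 578 CPM in wild-type P100 replicate 1 and 436 CPM in replicate 2, and 737 and 667 CPM in heterozygotes. Without wild-type P100 replicate 1, 11 layer 5 genes were called higher and none lower (median 0.86), and without replicate 2, 3 and 1 (median 0.25). Among 13 layer 2/3 genes 2 were higher (15.4%, beside 3.07% of all genes), none was lower and 8 (61.5%, beside 62.8%) lay inside 1.5-fold (median 0.03). These 2 were Calb1, also counted among the other interneurons, and Cdh13, and their calls were lost in 5 and 7 of 14 alternatives. In the fit on 6 libraries, and with counts summed over transcripts, no layer 2/3 gene was called. The part of these layer genes in other differences was not tested.

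All 18 tested members of the interferon and MHC class I list had negative differences, 4 were lower (22.2%, beside 3.26% of all genes) and 4 (22.2%, beside 62.8%) lay inside 1.5-fold, with a median of -0.35. H2-K1, a classical MHC class I chain, was at 7.32 and 6.61 CPM in adults and at 2.45 and 3.15 CPM in heterozygotes (-1.31, SE 0.23, adjusted p = 0.00506), below the 4.80 and 5.60 CPM of young wild type. B2m, the shared light chain, was at 67.4 and 77.1 CPM against 56.2 and 57.2 CPM (-0.35, adjusted p = 0.039; 0.177 without heterozygous replicate 1, 0.135 without replicate 2 and 0.126 without wild-type P100 replicate 2). MHC class I genes are near-identical copies of each other, so that reads can be split among them in counting, and without replicate 1 of the heterozygotes or replicate 2 of the adults 2 members were called.

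Of 20 genes of cholesterol synthesis and uptake 15 (75%, beside 62.8% of all genes) lay inside 1.5-fold and 1 was called higher (5%, beside 3.07%). Cyp51, an enzyme of the pathway, was at 90.6 and 93.95 CPM against 92.5 and 96.2 CPM. In the insulin-like growth factor system Igf2 and Igfbp2 were higher (15.4%, beside 3.07%) and Igf1r lower (7.69%, beside 3.26%) among 13 genes. Igf1r, the receptor, was at 79.4 and 75.9 CPM against 53.0 and 63.9 CPM (-0.41, adjusted p = 0.024; 0.261 without heterozygous replicate 1). Igf2 (1.22, adjusted p = 0.00927; 0.061 without heterozygous replicate 2) shares 64.6% of its exon bases with another gene.

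Among 20 glucocorticoid-responsive genes 2 were lower (10%, beside 3.26% of all genes), none was higher and 10 (50%, beside 62.8%) lay inside 1.5-fold. Plin4, a lipid droplet protein, was at 8.57 and 7.08 CPM in adults and at 0.937 and 1.47 CPM in heterozygotes (-2.69, SE 0.28, adjusted p = 0.000173), and Xdh, xanthine dehydrogenase, at 10.3 and 10.9 CPM against 2.31 and 2.80 CPM (-2.04, SE 0.21, adjusted p = 0.000153). In young wild type Plin4 stood at 0.784 and 1.72 CPM and Xdh at 3.33 and 3.88 CPM, so the adult wild-type libraries alone were high for both. Fkbp5 and Sgk1, common reporters of the glucocorticoid receptor, were inside 1.5-fold (intervals -0.52 to -0.04 and -0.24 to 0.42). Of 17 clock genes 1 was higher (5.88%, beside 3.07% of all genes) and 14 (82.4%, beside 62.8%) lay inside 1.5-fold (median -0.01). Of 24 heat shock genes 1 was higher (4.17%), 2 were lower (8.33%, beside 3.26%) and 18 (75%) were inside (median -0.03). Of 74 nuclear respiratory chain genes 3 were higher (4.05%), 1 was lower (1.35%) and 62 (83.8%) were inside (median 0.06). Of 73 ribosomal protein genes none was higher, 3 were lower (4.11%) and 23 (31.5%) were inside (median -0.10). Hspa8, a constitutive chaperone, was at 96.0 and 109 CPM against 71.6 and 77.4 CPM (-0.46, SE 0.09, adjusted p = 0.00686).

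**Figure D5:**
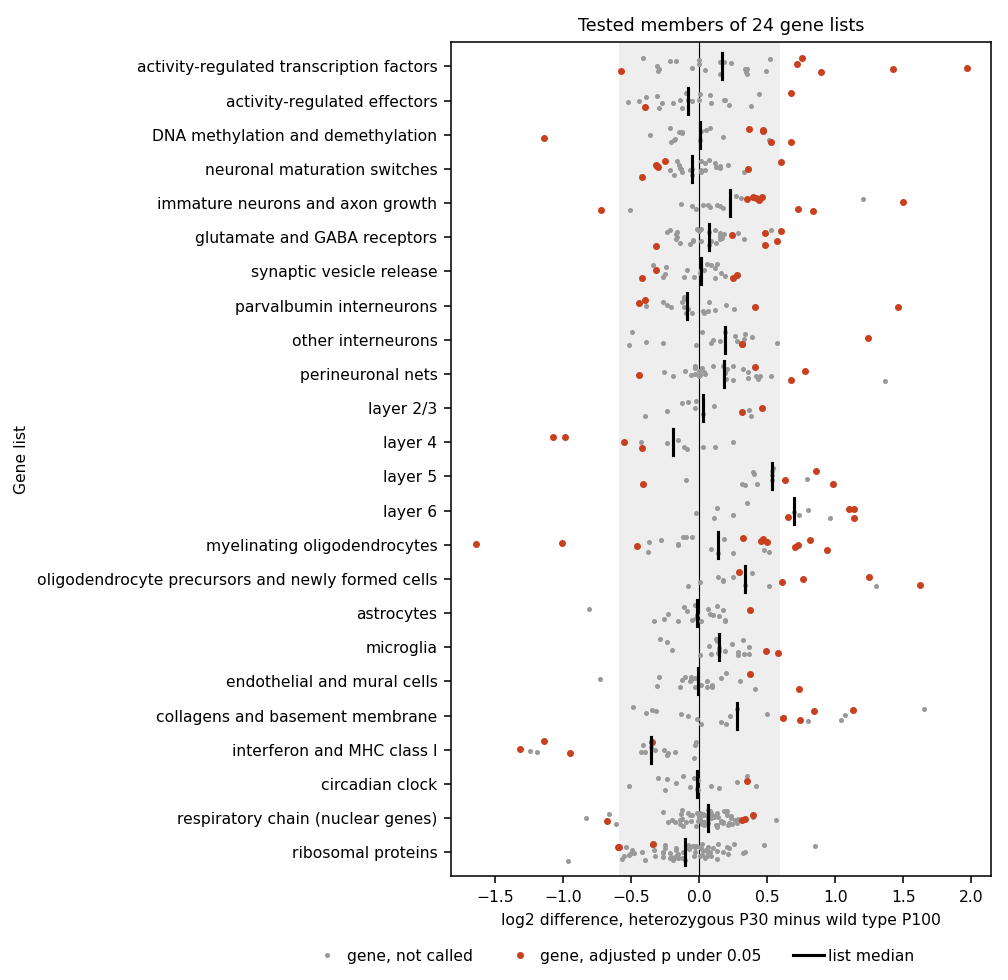
Log2 difference of heterozygous P30 from wild-type P100 (horizontal axis) of each tested member of 24 gene lists (rows): grey dots are genes not called, red dots genes with an adjusted p under 0.05, black bars list medians, and the grey band is 1.5-fold either way. The bars of layers 5 and 6 lie furthest to the right (0.53 and 0.70) and that of the interferon and MHC class I list furthest to the left (-0.35).

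Some genes outside these lists were called in every alternative. Met (chromosome 6, 17463800 to 17573980), the hepatocyte growth factor receptor, which shapes the timing of cortical synapse maturation, was at 13.8 and 9.915 CPM in adults and at 64.3 and 43.8 CPM in heterozygotes, above the 31.2 and 23.1 CPM of young wild type (log2 difference 2.17, SE 0.18, adjusted p = 4.67e-05). Fzd10, a Wnt receptor, was at 1.71 and 1.89 CPM against 9.01 and 8.54 CPM (2.28, SE 0.23, adjusted p = 0.000147), and Ndn, an imprinted gene of the MAGE family that restrains growth, at 91.0 and 94.99 CPM against 216 and 187 CPM (1.12, SE 0.08, adjusted p = 2.51e-05). Among the falls, Crispld1, a secreted protein, was at 28.5 and 27.8 CPM against 9.08 and 8.19 CPM (-1.70, SE 0.13, adjusted p = 2.51e-05), beside the 11.6 and 9.63 CPM of young wild type. Chrm2, the muscarinic receptor that damps acetylcholine release, was at 101 and 100.0 CPM in adults and 51.5 and 51.2 CPM in heterozygotes (-0.97, adjusted p = 4.67e-05), beside 52.3 and 68.2 CPM.

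Beside the young wild-type levels, the called genes lay in different places. In Plin4 and Anln the values of the heterozygotes overlapped those of young wild type. Ndn, with 111 and 102 CPM in young wild type, Met, Nov (57.7 and 57.0 CPM) and Etv1 stood in the heterozygotes above both wild-type ages, and Crispld1, Chrm2, Xdh, Hapln2, Nnat, Ptgds, Rims3, Crem and H2-K1 stood below both. Vcan, Dpysl3, Gabra5 and Lypd1 also stood above both, and Grin2b, Kcna1, Hapln4, Apod, Hspa8, Scnn1a, Il33 and Neat1 also below both. All of these are examples, and such genes were not counted. No test of the heterozygotes against young wild type was made here, and these groups too differ in their sex-linked transcripts. Bnc2 (1.95 and 2.93 CPM in adults, 0.0721 and 0.28 CPM in heterozygotes, -3.69, SE 0.56, adjusted p = 0.00218) and Stab2 (0.389 and 0.661 CPM against 8.36 and 3.15 CPM, 3.46, SE 0.54, adjusted p = 0.00249) had wider differences, at levels that rest on few counts.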

How the data were processed

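Per the labels' protocols, the submitters sequenced total RNA of hand-dissected tissue. The deposited values are raw counts of reads per Ensembl transcript (95533 in each file), per the file headers. Bowtie, HTSeq, DESeq 1.8.3 and mm10 are listed in the submitters' processing notes. Aligner versions, settings, annotation release and strand use are not given in the sources used here, so reads of genes that overlap on opposite strands are not separable.

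Each Ensembl gene was represented by its transcript with the highest total over 6 libraries, since isoforms share reads. Transcripts without a gene (9669, 13.96% of the counts) and sex-linked genes were left out, which kept 31294 autosomal genes. Low counts were removed over the 4 libraries (filterByExpr with min.count 10 and min.total.count 15). TMM scaling and the quasi-likelihood test were those of edgeR 4.0.16 (R 4.3.3), with Benjamini-Hochberg adjustment over 14703 genes. The test had 2 residual degrees of freedom and a median of 13.03 in total, because the spread of each gene borrows from that of all genes. The standard error is the log2 difference divided by the square root of F. Wild-type P30 libraries were placed on the same scale and not tested. Duplicates differed beyond sampling noise (chi-square 3.89 and 4.04 times its degrees of freedom). The procedure was tested on simulated data.

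Named genes were Otx2, Gadd45b, Gadd45g, Pvalb, the maturation switches, the 12 largest rises and 12 largest falls at a mean of 1 CPM or more without overlap, up to 4 members called each way in each of 34 lists, and the 2 members of each with the highest CPM inside 1.5-fold. Only some of these are described, and a few are not reported here. Other genes, among them Fos, Egr3, Arc, Npas4, Junb, Nr4a1, Tet3, Mag, Mog, Mal, Gap43, Ndn, Rims3 and Chrm2, and all further members named with their values, were chosen after their values were seen. The contrast, members and lists were chosen with earlier results of these data known. Alternatives were other scalings and filters, DESeq2 1.42.0, limma-voom (limma 3.58.1), a fit on 6 libraries, counts summed over transcripts, all chromosomes, a replicate block and leaving out each library. The authors' deposited tables of comparisons and the heterozygous P100 samples were not used here.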

Additional observations from a re-analysis of the deposited data

Results flagged for a closer look

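Otx2 and Ttr did not pass the filter on low counts and so entered no comparison, yet heterozygous P30 replicate 2 held 73 counts of Otx2 and 8966 counts of Ttr, against 0 of Otx2 and 0 or 1 of Ttr in each of the other 5 libraries. All 18 choroid plexus genes in the files were highest in this library. Of the 5 that were tested, 1 (Slc29a4, a monoamine transporter) was called higher, and that call was lost without this library (adjusted p = 0.092).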

How the results depend on the processing

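Against 452 genes called higher and 480 called lower, no filter on low counts gave 841 and 781, DESeq2 gave 283 and 323, and counts summed over transcripts gave 282 and 310. Leaving out 1 library gave 268 to 637 higher and 265 to 624 lower genes, fewest without heterozygous replicate 1 and most without wild-type P100 replicate 1; the lone library is then assumed to vary like the other group. RLE and upper-quartile scaling, a CPM filter, limma-voom, the fit on 6 libraries and all chromosomes stayed within 1.5 times the counts, and so did the number of genes inside 1.5-fold in every fit. At an unadjusted p under 0.05, 3116 genes passed.

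The labels give the groups the same replicate numbers, but the deviations of same-numbered libraries did not correlate over genes (r = 0.005). With 2 libraries a group this gives no sign of pairing and cannot exclude it. With a replicate block 439 genes were higher and 473 lower, 829 of them among the 932.

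Among 215 named genes tested, 136 were called, and 64 of these in each of the 14 fits in which they were tested. Of 3000 gene values 2 reversed, which means that the sign changed and the gene was called before or after. Sign changes between values that were not called were left out of this count. Npas4 (-0.055) was -0.624 without wild-type P100 replicate 1 and 0.792 without replicate 2, and Nr4a1 (0.235) was 0.711 without heterozygous replicate 1 and -0.487 without replicate 2. With 2 libraries a group, the median half-width of the interval was 0.273 on the log2 scale, so smaller differences were often not detectable. Some calls described above as lost without a library were lost in other alternatives too. Those of Apod, B2m, Cort and Slc29a4, for example, were lost both in DESeq2 and with counts summed over transcripts.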

Other observations

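Small nucleolar RNAs, which guide the modification of ribosomal RNA, were lower in the young heterozygotes where they were called. Of 181 such genes tested, 17 were lower and none was higher (median log2 difference -0.27), beside 3.26% lower and 3.07% higher of all genes. Of 34 small nuclear RNA genes 2 were lower, too few to set apart from the share over all genes. Their summed levels were 2160 and 2184 CPM for small nucleolar RNAs in adult wild type, 1365 and 1824 CPM in heterozygotes and 1743 and 2079 CPM in young wild type. Total RNA libraries retain such RNAs to differing degrees, and the part of that in these values was not tested.

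Neat1, the long RNA of paraspeckles, was at 62.8 and 41.1 CPM in adults and at 15.4 and 22.3 CPM in heterozygotes, a log2 difference of -1.47 (SE 0.19, edgeR adjusted p = 0.00072), below the 49.7 and 51.8 CPM of young wild type. Il33, an alarmin of glia, was at 48.8 and 37.0 CPM against 19.5 and 17.1 CPM (-1.24, SE 0.14, edgeR adjusted p = 0.000265), beside 28.7 and 30.2 CPM. A pair of genes best known from muscle were higher: Tnnc1, a troponin, at 5.22 and 4.44 CPM against 18.6 and 20.9 CPM (2.02, SE 0.16, edgeR adjusted p = 4.5e-05), and Myl4, a myosin light chain, at 20.2 and 15.1 CPM against 49.9 and 51.2 CPM (1.51, SE 0.13, edgeR adjusted p = 4.67e-05). These 4 genes were chosen after their values were seen, and their calls held in all alternatives.

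The share of tested genes called ran from 4.38% on chromosome 10 to 9.72% on chromosome 6. Within 10 megabases of Otx2 on chromosome 14, 6 of 140 tested genes (4.29%) were called, 2 higher and 4 lower.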
